A study of Mus musculus with 6 samples.

Results

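Among the 3662 circRNAs counted in differentiating white fat cells, 167 (4.56%) spanned 50 kb or more of the genome between their back-splice ends, introns included. They were chosen by this span alone, which does not use their level at any stage. The spans ran from 50172 to 191363 bases with a median of 65.4 kb, and 35 circRNAs reached 100 kb. The other 3495 circRNAs had a median span of 6.86 kb. The long-span circRNAs came from 108 parental genes, of which 69 gave a single one, 26 gave 2 and 13 gave 3 or more. Of these genes, 94 also gave shorter circRNAs.

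The cells were the stromal vascular fraction of inguinal fat, a mixed population that remains once the adipocytes are removed, from female C57BL/6J mice aged 6 weeks. RNA was taken in 2 biological replicates per stage, and the number of mice behind each was not given in the sources used here. D0 cells were proliferating and had received no induction. D4 cells had been kept for 4 days in DMEM with serum (10%), insulin (2.85 mM), dexamethasone (0.3 mM) and IBMX (0.63 mM), an inhibitor of phosphodiesterases. D8 cells had the same 4 days and then 4 more with serum (10%), insulin (200 nM) and the thyroid hormone T3 (10 nM), so that time and medium cannot be told apart. All libraries were made after removal of rRNA and digestion of linear RNA with RNase R.

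A circRNA forms by back-splicing, in which a splice donor is joined to a splice acceptor that lies upstream of it, at the front of that exon or of one before it. The introns between these exons are usually removed, so a circle that spans a large stretch of genome can still be a short RNA. The polymerase has to transcribe the whole stretch before the donor exists, and the linear splicing of the same exons competes with the back-splice. Pairing between inverted repeats in the flanking introns and RNA-binding proteins are known to favour back-splicing. Closed circles lack free ends, resist exonucleases and tend to be stable.

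Back-splice junctions are shown for the 5 long-span circRNAs with the highest mean level and for those that passed a test between stages, 7 junctions of 6 genes. Each holds the last 15 bases of the donor exon in lower case and the first 15 bases of the acceptor exon in capitals, 5′ to 3′ on the strand of the gene, read from mm9. Both Slc10a7 circles have the same capitals, since they share an acceptor, and differ in the donor.
Slc10a7, 63 kb: tttggaagttttttgGACCACTGAAGCCAG
Slc10a7, 191 kb: agtccctcaccttggGACCACTGAAGCCAG
Tmem164, 82 kb: gaaaatagactaaagATCTTCCTCCTGGCC
Zmiz1, 79 kb: cccccaagtctgctgGACTCAGACAGCATA
Fndc3b, 87 kb: ggttatatctcacagGTAGCAGGTTGAGGG
Zbtb16, 116 kb: gacagacccatactgTCCCCTCTGCTGGCC
Nfia, 65 kb: atgaagtagagccagATTCAAGTCAATCTG

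Most of the span was intron. The long-span circRNAs held a median of 4 annotated exons and 514 exon bases, against 3 exons and 432 bases in the other circRNAs. Exons made up a median of 0.674% of the span, against 6.80% in the others, and with similar exon bases this difference follows from the choice by span. The longest intron inside the circle had a median of 39.3 kb, against 3.62 kb, and in both sets it took up a similar share of the span (median 55.4% and 55.0%). The annotation is GENCODE for Ensembl release 65, built on mm9. For a circle with an end outside an annotated exon, only the annotated exons between the ends were summed.

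**Figure D1:**
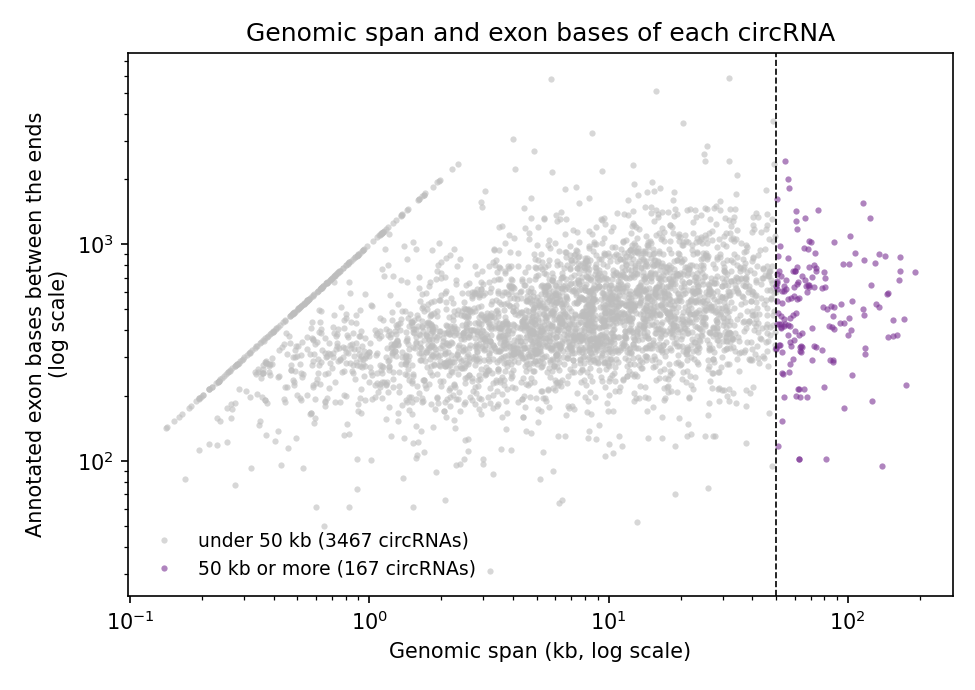
Each point is a circRNA, with its genomic span in kb on the horizontal log axis and the annotated exon bases between its ends on the vertical log axis. The dashed line marks 50 kb. The 167 long-span circRNAs (purple) lie in the same range of exon bases as most of the shorter ones (grey, the 3467 with an annotated exon between their ends), with medians of 514 and 432 bases.

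The parental genes had a median length of 243 kb over the 167 long-span circRNAs, against 93.2 kb over the others, a difference that the choice by span builds in. The choice did not use the introns on either side of the circle, which lie in these longer genes. The intron before the acceptor had a median of 31.3 kb, against 10.5 kb, and the intron after the donor 31.4 kb, against 7.96 kb. In 96 of the 167 (57.5%) the first exon of the circle was exon 2 of its transcript, the first that has an acceptor, against 34.5% of the others.

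The ends of the long-span circles were less often those of the annotation. Both ends matched annotated exon ends in 140 (83.8%), against 92.2% of the others. By their ends, 144 were exonic, 23 intronic and 0 intergenic. The intronic share was 13.8%, against 4.32%. In 166 of the 167 the genome read AG before the circle and GT after it, the usual splice signals. The exception was a circle of Mbd5, which encodes a methyl-CpG-binding domain protein. It had GC in place of GT. Of the long-span circRNAs, 80 (47.9%) were absent from circBase, the public list of circRNAs, against 35.0% of the others.

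Inverted repeats next to the ends were rare at exact match. An exact stretch of 20 or more bases in the 1000 bases before the circle, with its reverse complement in the 1000 bases after it, was found for 1 of the 167 (0.599%), against 198 of the 3495 others (5.67%). That circle was the 65 kb circle of Nfia, and the stretch was a run of CA repeats of 35 bases on the plus strand at chr4:97622855-97622889, 175 bases before the circle. Its reverse complement lies at chr4:97687919-97687953, 273 bases after the circle.
Nfia, before the circle: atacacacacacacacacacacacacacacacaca
Exact stretches miss diverged repeats, and the search window covers a small portion of these introns.

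The 6 libraries held 30110 to 50672 back-splice reads each, with the fewest at D0. Levels are given as reads, or as circCPM, the reads per 1000000 circRNA reads of the library. A single read was worth 19.7 to 33.2 circCPM. The deposited table holds no value of exactly 1, so a circRNA listed at 0 may have had a read. Where both libraries of a stage stand at 0, fold changes against it are left out. The cell label was checked on the parental genes of all circRNAs. Circles of adipocyte genes (Cd36, Lipe, Lpl and Pparg, 4 of 9 on the list) had 0 reads in both D0 libraries, 13 and 18 at D4, and 56 and 69 at D8. Circles of preadipocyte genes came from Pdgfra alone (1 of 8), with 8 and 10 reads at D0 and 0 to 5 later. Those of proliferation genes (Diaph3 and Ect2, 2 of 6) had 21 and 30 reads at D0, 10 and 30 at D4, and 6 and 9 at D8. No circle came from the 6 endothelial or the 5 pericyte genes listed. From the 5 immune genes, Adgre1 had 10 and 4 reads at D8 and 0 before. The part of these cell types in the results that follow was not tested. In bulk RNA, fewer cells of a type and less RNA per cell cannot be told apart.

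The long-span circRNAs held a larger share of the back-splice reads after induction. They had 9205 reads in all, 3.79% of the reads of the table. Their share was 2.41% and 2.40% in the D0 libraries, 4.72% and 4.92% at D4, and 3.64% and 3.90% at D8. The stages did not overlap. The means were 2.40% ± 0.0089 at D0, 4.82% ± 0.14 at D4 and 3.77% ± 0.18 at D8 (SD, n = 2), so that the D4 share was 2.00 times and the D8 share 1.57 times that of D0. Since the circRNAs were chosen with earlier results known, no p-value is given for such sums.

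As a ratio to D0, the other span classes moved less at D4, and both classes under 10 kb went down. CircRNAs of 10 to 50 kb held 31.4% ± 1.1 at D0, 36.7% ± 0.20 at D4 and 32.4% ± 0.63 at D8 (SD, n = 2). CircRNAs of 1 to 10 kb held 49.5%, 45.4% and 47.5%. CircRNAs under 1 kb held 16.8%, 13.1% and 16.4%. The D4 to D0 ratio thus went from 0.781 under 1 kb, through 0.918 and 1.17, to 2.00 at 50 kb or more. Within the long-span set it was 1.87 from 50 to 75 kb, 2.11 from 75 to 100 kb and 2.40 at 100 kb or more.

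**Figure D2:**
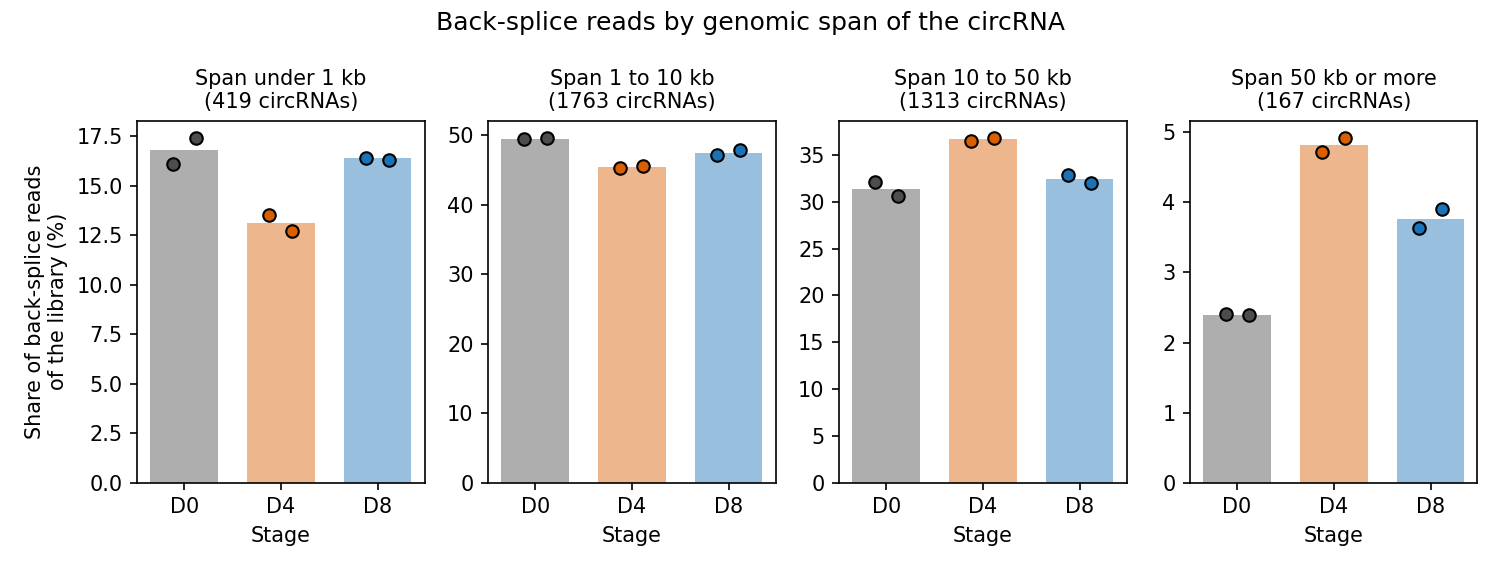
Share of the back-splice reads of a library (%) by stage, in a panel per class of genomic span, each with its own vertical axis from 0. Points are libraries and bars the means of 2. In the class of 50 kb or more both D4 libraries (4.72% and 4.92%) lie above both D8 libraries (3.64% and 3.90%) and these above both D0 libraries (2.41% and 2.40%).

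A single gene carried part of this, but the order of the stages did not rest on it. The 5 long-span circles of Slc10a7 held 0.18% ± 0.17 of the reads at D0 (0.0631% and 0.297% in its libraries), 1.03% ± 0.12 at D4 and 0.565% ± 0.072 at D8 (SD, n = 2). Without them the other 162 held 2.22% ± 0.17, 3.79% ± 0.26 and 3.20% ± 0.11 (SD, n = 2), 1.70 and 1.44 times the D0 value. The 10 long-span circRNAs with the highest mean held 37.3% of the long-span reads. Without these 10 the share was 1.53% ± 0.27, 2.92% ± 0.15 and 2.44% ± 0.085.

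The shift was larger for the long circles than for the short ones of the same genes. The 318 shorter circRNAs of the same parental genes held 11.7% ± 1.3 of the reads at D0, 14.2% ± 0.28 at D4 and 14.1% ± 0.61 at D8 (SD, n = 2), a D4 to D0 ratio of 1.22. The 363 shorter circRNAs of other genes of at least 243 kb had a ratio of 1.24 (7.67% at D0 and 9.51% at D4). Those of genes under 50 kb had a ratio of 0.817. Long-span circRNAs that start at exon 2 (96) and at a later exon (70) had ratios of 1.94 and 2.10. The difference was wider by circBase entry, with a ratio of 3.40 for the 80 absent from circBase (0.641% at D0 and 2.18% at D4) and 1.49 for the 87 present (1.76% and 2.64%). All 5 circles of Slc10a7 are among those absent, and without them the ratio of the other 75 was 2.50, from 0.461% at D0.

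Fewer long-span circRNAs were seen at D0 than later. A circRNA counts as detected at a stage with 2 or more reads in both replicates. By this rule 66 of the 167 (39.5%) were detected at D0, 114 (68.3%) at D4 and 91 (54.5%) at D8. Of the other circRNAs, 58.5% were detected at D0, 58.2% at D4 and 65.0% at D8. Those of 10 to 50 kb, the nearest class, also rose at D4, with 54.5%, 63.9% and 61.5%. Detection at a single stage was the most common pattern among the long-span circRNAs, with 97 of 167 (58.1%, against 46.3% of the others). Of these, 52 were detected at D4 only (31.1%, against 12.3%), 33 at D8 only (19.8%, against 17.9%) and 12 at D0 only (7.19%, against 16.1%). All 3 stages detected 34 (20.4%, against 28.0%). With 2 or more reads in either replicate the order turned, with 42 detected at a single stage and 77 in all 3. The shares of the others by this looser rule are not given here, so the sets cannot be compared by it. By the rule of both replicates, 5 of the 35 circRNAs of 100 kb or more (14.3%) were detected at D0 only, near the share of the others. The table admits only circRNAs detected at a stage, so a circRNA had to be seen somewhere to be counted at all.

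The D0 libraries were also the shallowest. After thinning of every library to 30110 reads, 65 of the long-span circRNAs (38.9%) were detected at D0, 103 (61.7%) at D4 and 81 (48.5%) at D8. The shares of the others were then 57.9%, 51.6% and 55.1%.

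**Figure D3:**
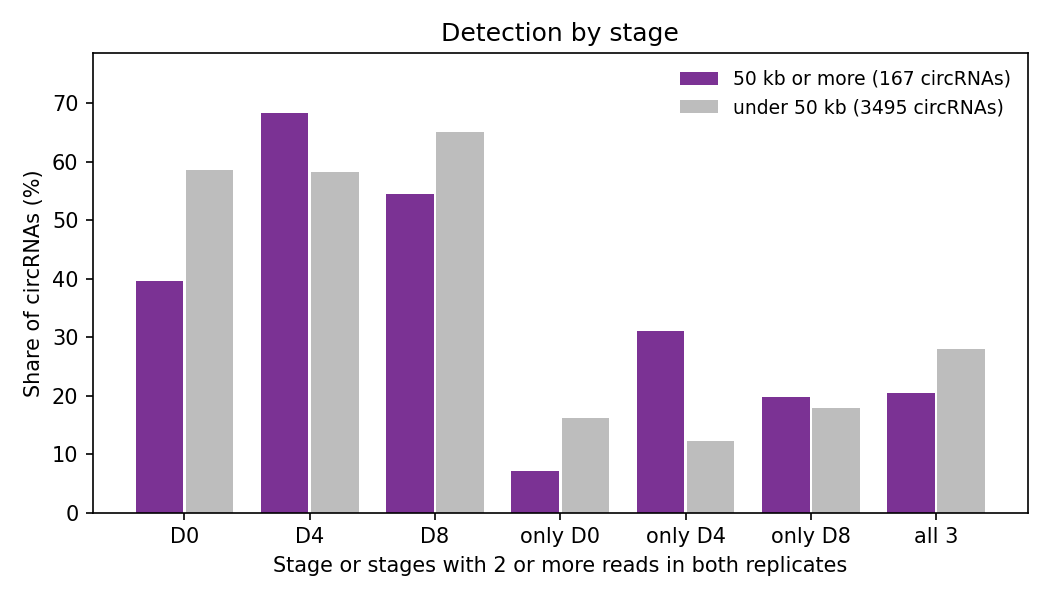
Share of circRNAs (%) detected with 2 or more reads in both replicates, for each stage, for a single stage alone and for all 3 stages. Purple bars are the 167 long-span circRNAs and grey bars the other 3495. The long-span bar is the lower one at D0 (39.5% and 58.5%) and the higher one at D4 (68.3% and 58.2%).

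With values of 0 included, the median long-span level was also lowest at D0. The median long-span circRNA stood at 0 in both D0 libraries, at 116 and 144 circCPM at D4, and at 110 and 98.7 circCPM at D8. The medians of the other circRNAs were 133 and 124 at D0, 116 and 96.0 at D4, and 110 and 118 at D8. Of the long-span circRNAs, 50.9% and 51.5% were listed at 0 at D0, 23.4% and 22.2% at D4, and 32.9% and 35.9% at D8. Both D0 libraries were at 0 for 70 of them (41.9%), against 19.4% of the others. Without the values of 0 this order was not seen. The medians were then 199 and 186 circCPM at D0, 163 and 192 at D4, and 176 and 197 at D8 for the long-span circRNAs. Those of the others were 199 and 217, 163 and 192, and 176 and 178.

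Between D0 and D4 the long-span circRNAs that separated mostly did so upwards. Both D4 libraries were above both D0 libraries in circCPM for 74 of the 167 (44.3%), where 23.0% of all 3662 circRNAs were. Both were below for 19 (11.4%), where 27.2% of all were. On D8, 52 (31.1%) were above both D0 libraries, beside 25.1% of all, and 22 (13.2%) below, beside 26.3%. From D4 to D8, 38 (22.8%) were higher in both libraries, beside 27.8%, and 61 (36.5%) were lower, beside 21.2%. The comparisons share libraries and are not independent of each other. A circRNA that entered the table through D4 alone is largely bound to separate upwards from D0 and downwards at D8. By detection, 31.1% of the long-span circRNAs stood at D4 only, against 12.3% of the others, and 7.19% at D0 only, against 16.1%. The same limit applies to the counts of this kind by gene list below.

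Few of these differences passed the test of single circRNAs. Of the 167, 61 had enough reads for edgeR's quasi-likelihood test, in a fit of 1407 circRNAs with Benjamini-Hochberg adjustment over all of them. Between D0 and D4, 5 changed at an adjusted p under 0.05, all upwards, where 3.27% of all tested were called (2.20% upwards and 1.07% downwards). They were the 191 kb circle of Slc10a7 and the circles of Fndc3b, Nfia (65 kb), Zbtb16 and Tmem164 (82 kb). Between D0 and D8, 2 changed, those of Zbtb16 and Fndc3b, both upwards, where 1.49% of all were called (1.21% upwards). The test of the 3 stages together called 2, the 191 kb circle of Slc10a7 and that of Fndc3b, where 1.14% were called. Between D4 and D8, edgeR called 0 of the 61, where 0.0711% of all were called. At an unadjusted p under 0.05, 5 of the 61 were lower at D8 than at D4, where 5.61% of all were. DESeq2 also called 0 of the 61, among 6 of all 1407.

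The median log2 fold change of the 61 tested was 0.827 for D4 against D0, 0.779 for D8 against D0 and -0.22 for D8 against D4. Over all 1407 it was 0.0281, 0.0548 and -0.0123. The 61 are those with enough reads in at least a stage, and they leave out 106 with few reads.

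The calls, also those for D8 against D0, rest on having both D4 libraries in the fit. Without either of them edgeR called 0 of the 61 in every comparison, and 0 of all 1407. In the fit all stages share an estimate of the spread. Leaving out the first or second D4 library gave D4 log2 fold changes of 3.25 and 3.17 for Fndc3b (3.24 with both). They were 3.07 and 3.42 for Slc10a7 (191 kb, 3.29 with both) and 4.59 and 4.58 for Zbtb16 (4.62). For Tmem164 they were 1.96 and 1.35 (1.73). For D8 against D0 they were 2.61 and 2.66 for Fndc3b (2.65) and 4.92 and 4.97 for Zbtb16 (4.97). Without either D0 library the circles of Tmem164 and Nfia were no longer called for D4 against D0. Without the first, 3 long-span circles were called, among 18 of all 1407. Without the second, 4 were called, among 35 of all 1407, with the 63 kb circle of Slc10a7 among them. The circle of Tmem164 was also not called without the first D8 library (edgeR adjusted p 0.0514). Without the first D0 library the circle of Fndc3b was no longer called for D8 against D0 (edgeR adjusted p 0.0873) or in the test of the 3 stages. Without either D8 library the circles of Fndc3b and Zbtb16 were no longer called for D8 against D0. Their log2 fold changes were then 2.49 and 2.79 for Fndc3b and 4.95 and 4.98 for Zbtb16. Without the first D8 library, the circles of Slc10a7 (191 kb) and Fndc3b were also no longer called in the test of the 3 stages.

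Slc10a7, which encodes an orphan member of the bile acid carrier family, gave the long-span circle with the most reads and the one with the longest span. Its 63 kb circle (chr8:81039485-81102656, plus strand, exons 2 to 5) had 0 and 83 reads at D0, 293 and 212 at D4, and 159 and 184 at D8. The first D0 library stood apart from the second, and both D4 libraries were above all others. The log2 fold change was 2.30 ± 1.09 (SE) at D4 and 1.56 ± 1.08 at D8, with edgeR adjusted p of 0.309 and 0.485. Without the first D0 library the log2 fold change was 1.27 (adjusted p 0.0742) at D4 and 0.55 (adjusted p 0.311) at D8. Without the second, D0 stands at 0 in its lone library, so no fold is given, and the adjusted p were 0.0032 and 0.00644.

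The 191 kb circle of Slc10a7 (chr8:81039485-81230847, exons 2 to 10 of 12) was the longest of all. It had 10 and 5 reads at D0, 106 and 85 at D4, and 46 and 68 at D8, and the stages did not overlap. Its log2 fold change was 3.29 ± 0.45 (SE) at D4, with edgeR adjusted p of 0.0225, and 2.36 ± 0.45 at D8, with 0.0555. The 3-stage adjusted p was 0.0447. A circle of 147 kb from the same acceptor (exons 2 to 6) had 2 and 0 reads at D0, 48 and 52 at D4, and 0 and 46 at D8. The remaining 2, of 73.7 and 53.6 kb, had 2 to 25 reads per library.

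Fndc3b encodes a membrane protein with fibronectin type III domains, also known as FAD104, a factor for adipocyte differentiation. Its circle of exons 2 to 4 (chr3:27455042-27542011, minus strand, 87.0 kb) had 4 and 9 reads at D0, 76 and 82 at D4, and 61 and 57 at D8. Both later stages lay far above D0, with D4 the higher. The log2 fold change was 3.24 ± 0.44 (SE) at D4 and 2.65 ± 0.44 at D8, with edgeR adjusted p of 0.0225 and 0.0343. Most of its length was an intron of 64.4 kb. Another 3 long-span circles of Fndc3b, each with an end inside an intron, were listed at 0 in both D0 libraries, and the highest of these had 25 and 15 reads at D4.

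Zbtb16 encodes PLZF, a zinc finger transcription factor. Its circle of exons 2 to 4 (chr9:48525388-48641204, minus strand, 116 kb) held 1542 exon bases, the most of the circles called. It had 2 and 0 reads at D0, 34 and 35 at D4, and 47 and 53 at D8. Both later stages lay above both D0 libraries. The log2 fold change was 4.62 ± 0.81 (SE) at D4 and 4.97 ± 0.81 at D8, with edgeR adjusted p of 0.0334 and 0.0329. With so few D0 reads the fold is poorly set.

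Nfia encodes nuclear factor I A, a transcription factor. Its 65 kb circle (chr4:97623065-97687645, plus strand, exons 3 to 6) was listed at 0 in both D0 libraries, had 70 and 49 reads at D4, and 8 and 30 at D8. It was highest at D4 and no library overlapped another stage. The edgeR adjusted p was 0.0302 at D4 and 0.0822 at D8, with no fold for the reason above. An 85 kb circle from the same acceptor, to exon 7, had 4 and 0 reads at D0, 49 and 31 at D4, and 5 and 23 at D8. The only shorter circle at that acceptor, which ends 2078 bases on, outside an annotated exon, had at most 6 reads in a library.

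Tmem164 encodes a transmembrane protein and lies on chromosome X. Its 82 kb circle (chrX:139186583-139268936, plus strand, exons 3 to 8) had 31 and 31 reads at D0, 102 and 160 at D4, and 89 and 106 at D8. In circCPM the stages did not overlap, with 1030 and 960 at D0, 2368 and 3841 at D4, and 1962 and 2092 at D8. The log2 fold change was 1.73 ± 0.32 (SE) at D4 and 1.12 ± 0.32 at D8, with edgeR adjusted p of 0.0343 and 0.126. A 54 kb circle from the same acceptor had 8 and 30 reads at D0, 73 and 48 at D4, and 26 and 34 at D8.

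The other abundant long-span circles described here did not pass the test. Zmiz1 encodes a transcriptional coactivator. Its 79 kb circle (chr14:26322141-26401159, exons 2 to 6) had 48 and 47 reads at D0, 72 and 86 at D4, and 69 and 115 at D8. Its log2 fold change of 0.38 ± 0.31 (SE) at D4 had an edgeR adjusted p of 0.567. Med13l, a subunit of the kinase module of Mediator, gave an 88 kb circle with 13 and 20 reads at D0, 35 and 39 at D4, and 28 and 41 at D8. In circCPM both D4 libraries (813 and 936) were above both D0 libraries (432 and 619). Its log2 fold change of 0.82 ± 0.44 (SE) at D4 had an edgeR adjusted p of 0.365.

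Cacna1c encodes the pore subunit of an L-type calcium channel. Both of its long-span circles start at exon 2 and end outside annotated exons. The 55 kb circle had 51 and 47 reads at D0, 29 and 31 at D4, and 30 and 23 at D8. The 52 kb circle had 25 and 61 reads at D0, 8 and 20 at D4, and 10 and 27 at D8. For the 55 kb circle both later stages lay below D0, and the log2 fold change of -1.06 ± 0.38 (SE) at D4 and -1.40 ± 0.39 at D8 had edgeR adjusted p of 0.171 and 0.115. Among the abundant long-span circles described here, these were the ones whose own highest stage was D0.

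Atxn1, a chromatin-bound regulator mutated in a spinocerebellar ataxia, gave a 161 kb circle (exons 2 to 4) with its highest values at D8. It had 17 and 10 reads at D0, 23 and 24 at D4, and 51 and 51 at D8, and the log2 fold change of 1.38 ± 0.47 (SE) at D8 had an edgeR adjusted p of 0.163. A 104 kb circle from the same acceptor had 11 and 7 reads at D0, 0 and 17 at D4, and 42 and 16 at D8, where the stages overlapped. All 4 long-span circles of Atxn1 together had 33 and 25 reads at D0, 23 and 45 at D4, and 111 and 84 at D8. Arid1b, a subunit of the SWI/SNF remodelling complex, gave an 86 kb circle with 16 and 14 reads at D0, 33 and 40 at D4, and 0 and 26 at D8. The 2 D8 libraries disagreed on it. Pcdh19, a cell adhesion protocadherin, gave a 56 kb circle on chromosome X with 19 and 2 reads at D0, 31 and 19 at D4, and 23 and 39 at D8, where the stages overlapped.

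**Figure D4:**
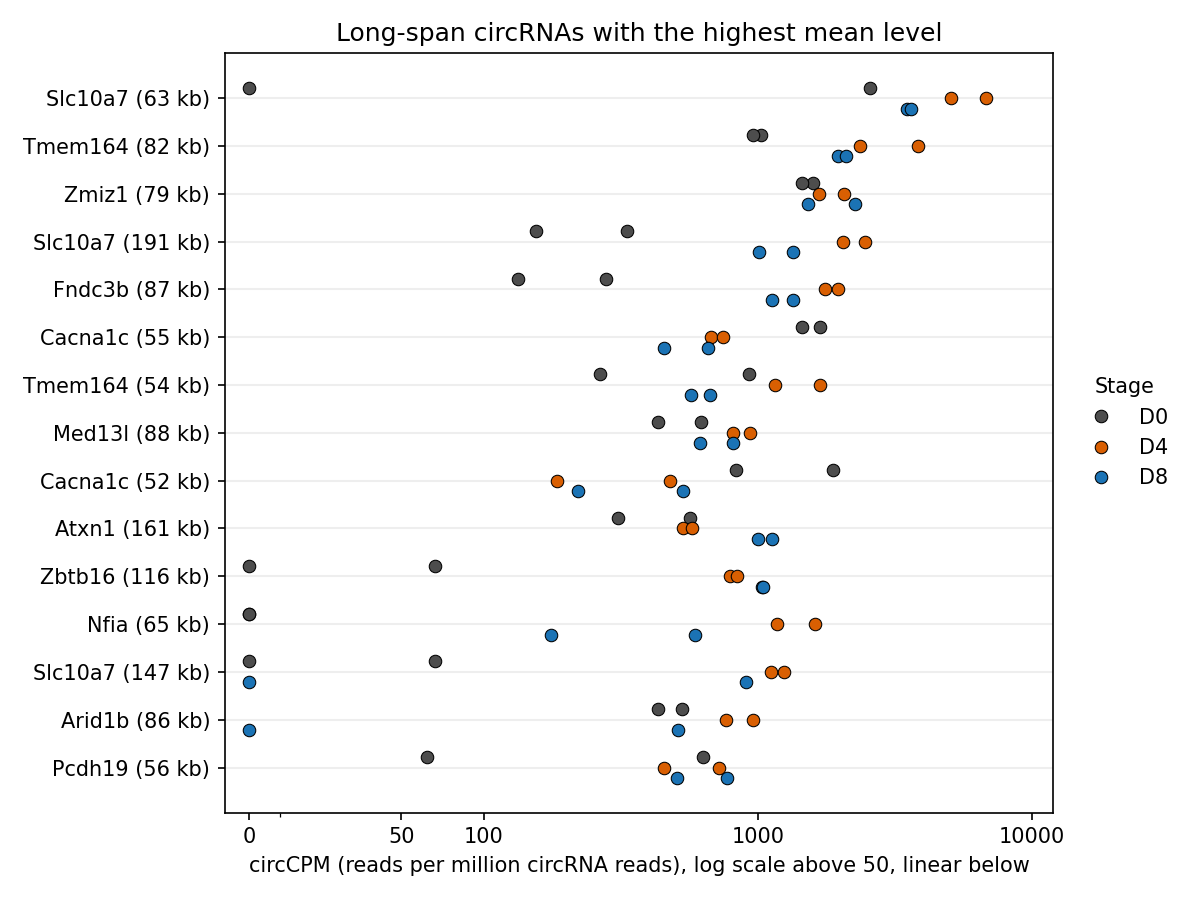
Level in circCPM of the 15 long-span circRNAs with the highest mean, on a horizontal axis that is logarithmic above 50 and linear below. Each point is a library, coloured by stage and set apart vertically within a row (D0 on top, D8 at the bottom). Both D0 points of Nfia lie on each other at 0. In the rows of Slc10a7 (191 kb), Fndc3b, Zbtb16, Nfia and Tmem164 (82 kb) both D0 points lie to the left of both D4 points, and in those of Cacna1c to the right of both.

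The circles detected at D4 only include the 147 kb circle of Slc10a7 described above, the highest of them, and a circle of Cped1. The circle of Cped1 had 9 and 16 reads at D4, none listed at D0, and 0 and 3 at D8. Detection at a stage thus did not mean absence elsewhere.

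Of those detected at D8 only, the highest was a circle of Ghr, the growth hormone receptor. This 130 kb circle (chr15:3277974-3408008, minus strand, exons 2 to 8) had 0 and 5 reads at D0, 0 and 16 at D4, and 41 and 56 at D8. Both D8 libraries lay above all others, an order that the choice among circles detected at D8 only largely sets. The edgeR adjusted p for D8 against D0 was 0.199. A circle of Frmd4a, a scaffold protein of cell polarity, had 7 and 0 reads at D0, 3 and 0 at D4, and 22 and 13 at D8. A circle of Acss3, a mitochondrial acyl-CoA synthetase, had 0 reads in both D0 libraries, 0 and 5 at D4, and 18 and 15 at D8.

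Those detected at D0 only had few reads. The highest were circles of Fer, a tyrosine kinase, with 3 and 8 reads at D0, of Etv6, an ETS family repressor, with 5 and 4, and of Mbd5, with 6 and 2. Each had at most 3 reads in any later library, where the choice by detection at D0 only favours low counts.

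After the 191 kb circle of Slc10a7, the next 4 by span had 0 to 13 reads in each library. The second longest, 175001 bases (chr6:99210339-99385339, minus strand), was assigned to Eif4e3, which encodes a cap-binding protein. Both ends lie inside that gene as annotated (exons 4 to 5). The donor end was also matched to an exon of Foxp1, a forkhead repressor, so the parental gene is not certain. This circle had 5 and 3 reads at D4 and was listed at 0 in the other libraries. The next were circles of Tcf4, a basic helix-loop-helix factor (172748 bases), Large, a glycosyltransferase that acts on dystroglycan (166019 bases), and Bnc2, a zinc finger protein (165016 bases). The circle of Tcf4 had 7 and 5 reads at D4, 0 at D0, and 0 and 6 at D8. That of Large had 6 and 5 reads at D0, 0 at D4, and 2 and 5 at D8. That of Bnc2 had 10 and 0 reads at D0, 13 and 9 at D4, and 4 and 0 at D8.

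The circles nearest the threshold had few reads on either side of it. Just inside were circles of Gphn (50172 bases), Dennd1b (50211) and Rnf144a (50270), with 0 to 6 reads per library. Just outside were those of Odz3 (49935), Rbms1 (49784) and Fer (49686), with 0 to 13 reads per library.

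By the role of the parental gene, 43 of the long-span circRNAs came from 25 genes on a list of 77 transcription and chromatin regulators. They held 0.656% of the reads at D0, 1.19% at D4 and 0.937% at D8. Of the 43, 20 were tested, and 2 rose at D4 (Nfia and Zbtb16) and 1 at D8 (Zbtb16), where 2.20% and 1.21% of all tested were called upwards. In 18 of the 43 both D4 libraries lay above both D0 libraries, and in 6 below, beside 23.0% and 27.2% of all circRNAs. For D8 these were 9 and 6, beside 25.1% and 26.3%. Such genes include Rere, an atrophin family corepressor, with 4 long-span circles that had 25 and 31 reads at D0, 86 and 68 at D4, and 47 and 34 at D8. Zeb1 and Hivep2, both zinc finger factors, had 3 each. Those of Zeb1 had 11 and 9 reads at D0, 24 and 17 at D4, and 21 and 56 at D8. Those of Hivep2 had 21 and 13 reads at D0, 6 and 13 at D4, and 16 and 24 at D8, and in circCPM both D4 libraries were below both D0 libraries.

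Genes of the cytoskeleton, adhesion and matrix gave 20 long-span circRNAs from 12 genes. Their share was 0.212% at D0, 0.574% at D4 and 0.436% at D8. In 13 of the 20 both D4 libraries lay above both D0 libraries, and in 1 below, where 23.0% and 27.2% of all circRNAs were. For D8 these were 8 and 1, where 25.1% and 26.3% of all were. Of the 8 tested, the circle of Fndc3b rose at D4 and D8, beside 2.20% and 1.21% of all tested. Arhgap10, a GTPase-activating protein, had 3 with 35 and 6 reads at D0, 15 and 11 at D4, and 46 and 20 at D8.

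Metabolic genes gave 13 from 8 genes, with 0.0372% of the reads at D0, 0.133% at D4 and 0.18% at D8. Only 2 of them were tested and edgeR called 0, where 3.27% of all tested were called at D4 and 1.49% at D8. In 6 of the 13 both D4 libraries lay above both D0 libraries, and in 2 below, beside 23.0% and 27.2% of all circRNAs. For D8 these were 5 and 1, beside 25.1% and 26.3%. Bckdhb, a subunit of the dehydrogenase that breaks down branched-chain keto acids, had 5, all listed at 0 in both D0 libraries. Together they had 24 and 37 reads at D4 and 35 and 41 at D8. Its shorter circles had 60 and 50 reads at D0, 191 and 162 at D4, and 231 and 195 at D8. The highest of the 5, a 60.1 kb circle of exons 2 to 8, had an edgeR adjusted p of 0.0771 for D4 against D0 and 0.0902 for D8 against D0. DESeq2 called it in both comparisons, among 68 and 50 of all 1407.

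Receptors and signalling genes gave 14 from 8 genes, with 0.404% of the reads at D0, 0.243% at D4 and 0.315% at D8. Cacna1c made up most of the D0 reads of this list, and without it the share was 0.11%, 0.139% and 0.222%. In 4 of the 14 both D4 libraries lay above both D0 libraries, and in 3 below, beside 23.0% and 27.2% of all circRNAs. For D8 these were 5 and 3, beside 25.1% and 26.3%. Of the 6 tested edgeR called 0, where 3.27% of all tested were called at D4 and 1.49% at D8. The 3 circles of Ghr had 0 and 5 reads at D0, 0 and 21 at D4, and 60 and 84 at D8. The other 77 long-span circRNAs, of 55 genes on none of the lists, held 1.10%, 2.68% and 1.90% of the reads, Slc10a7 included. Among them Celf2, an RNA-binding splicing regulator, had 3 with 9 and 7 reads at D0, 40 and 37 at D4, and 23 and 57 at D8. Tasp1, a protease, had 3 with 33 and 14 reads at D0, 26 and 17 at D4, and 13 and 5 at D8. Eri3, of an exoribonuclease family, had 3 with 11 and 19 reads at D0, 51 and 46 at D4, and 21 and 5 at D8. Pvt1, a non-coding RNA gene, had 3 with 115 reads in all, against 2927 for its 4 shorter circles.

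A long and a short circle that start at the same acceptor, or end at the same donor, offer a comparison within a gene. With at least 100 reads over the 6 libraries, 78 such ends of 53 genes were shared by 89 long-span and 120 shorter circRNAs, 44 of them acceptors and 34 donors. Over all of these, the long-span circRNAs held 18.9% and 17.1% of the reads at D0, 27.5% and 28.3% at D4, and 23.0% and 23.6% at D8. The stages did not overlap. These pooled shares are weighted by reads. A single acceptor of Slc10a7 gave 17 and 92 long-span reads at D0, 463 and 366 at D4, and 228 and 309 at D8. No pooled share without it is given. Of the 68 ends with reads in every library, the long-span share was higher in both D4 libraries than in both D0 libraries at 27 and lower at 11. For D8 against D0 these were 19 and 10. Ends of a gene can share circles, so they are not independent.

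The ends did not all behave alike. At the exon 2 acceptor of Slc10a7 (position 81039485), 4 long-span and 2 shorter circles met. The long-span circles held 22.4% and 54.1% of its reads at D0, 73.6% and 74.8% at D4, and 72.2% and 75.7% at D8. The main short circle there, exons 2 to 4 within 15.6 kb, had 59 and 76 reads at D0, 161 and 121 at D4, and 88 and 99 at D8. At the exon 2 acceptor of Fndc3b, the circle of exons 2 to 4 held 7.27% and 7.63% at D0, 28.8% and 35.8% at D4, and 34.5% and 31.8% at D8, against that of exons 2 to 3.

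Other acceptors differed from these. In Tmem164 the long-span circles held 80.0% to 89.7% of the reads in every library. In Med13l they held 10.6% and 11.9% at D0, 9.04% and 10.0% at D4, and 7.37% and 11.3% at D8, beside a circle of exon 2 alone that had up to 583 reads. In Cacna1c they held 25.7% and 27.5% at D0, 21.9% and 36.4% at D4, and 31.7% and 32.7% at D8. Its main short circle had 206 and 267 reads at D0, 114 and 83 at D4, and 84 and 91 at D8. In Tasp1 the long-span share was 38.8% and 12.6% at D0, 26 of 153 and 17 of 140 reads at D4, and 9.63% and 2.96% at D8, so both D8 libraries lay below both D0 libraries.

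**Figure D5:**
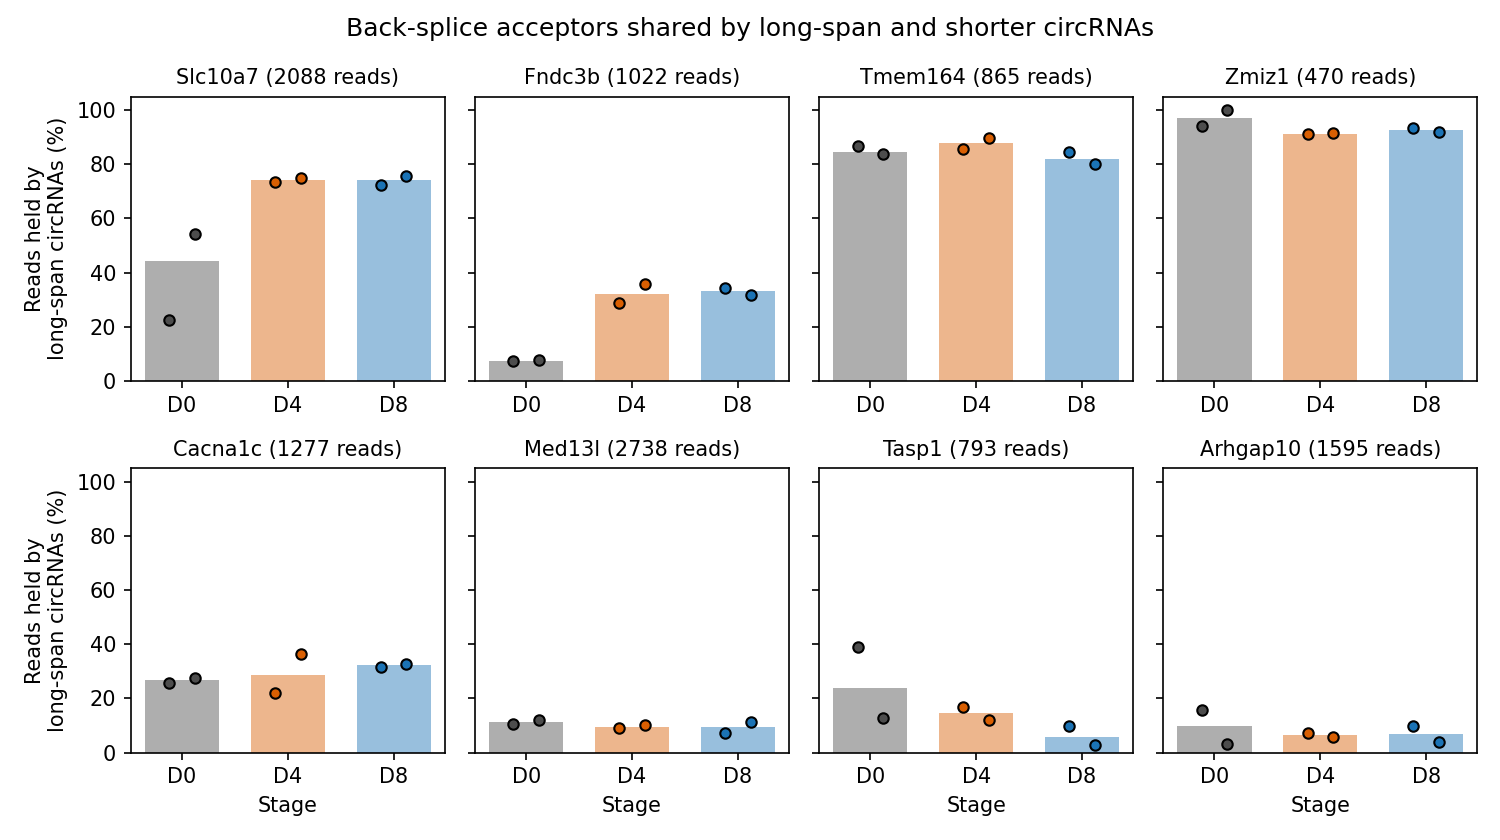
Share of the reads at a back-splice acceptor (%) held by its long-span circRNAs, by stage, for 8 acceptors with the reads over the 6 libraries in each title. Points are libraries and bars the share in the summed reads of both. In Slc10a7 and Fndc3b both D4 and both D8 points lie above both D0 points. In Med13l the points lie between 7.37% and 11.9%.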

How the data were processed

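Reads were trimmed by the authors with fastp and mapped to mm9 with BWA-MEM, and back-splice junctions were called in each library with CIRI2. The submitters' processing notes also list FastQC 0.11.9 and HISAT2 2.2.0, with no role given. The deposited values are a raw count of back-splice reads per circRNA and library, without normalization, kept by the authors where both replicates of a stage had 2 or more. The other deposited column used is the genomic length. Libraries held 30110 to 50672 reads. Since the libraries carried no molecular identifiers that the sources name, several reads can come from the same molecule.

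Column totals served as library sizes for circCPM. Changes between stages were tested with edgeR 4.0.16 (quasi-likelihood F-test, TMM, filterByExpr with a minimum count of 10 and a minimum total of 15, Benjamini-Hochberg at 0.05) in R 4.3.3, with DESeq2 1.42.0 as an alternative. The edgeR script was tested on simulated data. Ends were compared with GENCODE on mm9, and starts count from base 1. Python 3.11.15 with pandas 2.3.3 and matplotlib 3.10.9 did the rest. Named circRNAs are those past a test, the 15 with the highest mean, the 5 longest, the 3 on each side of the threshold, the 3 highest detected at each single stage, and those of genes with 3 or more. The 85 kb circle of Nfia and the long-span circle of Pparg were named beside these after their values were seen. A circRNA named by this rule is not reported here. The circRNAs, gene lists and tests were chosen with earlier results of these data known. Alternatives were other normalizations, filters, detection minimums and span limits, DESeq2, a replicate block, fits of a pair of stages, thinning, and each library left out in turn.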

Additional observations from a re-analysis of the deposited data

How the results depend on the processing

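The number of long-span circRNAs called depended on the settings. For the 3 stages together it was 2, and became 0 with column totals alone (5 of all 1407 called), with a mean of 5 or more counts (5 of 1707) or with a replicate block (4 of 1407), 6 with DESeq2 (78 of 1407), and 32 with no filter (396 of 3662). For D4 against D0 it was 5, and became 2 with a replicate block (17 of 1407) and 8 in a fit of the 2 stages (59). For D8 against D0 it was 2, and became 6 with DESeq2 (50) and 0 with a replicate block (4) or in a fit of the 2 stages (0). The sources do not say that replicate numbers pair the libraries, so the block is given only here. Libraries of the same number had correlations of 0.0348 to 0.0703, which at such low counts cannot decide whether they are paired. Without the circRNAs listed at 0 in a replicate and at 15 or more reads in the other, a setting chosen after seeing the data, the counts were 9, 9, 7 and, for D8 against D4, 1, where 146, 107, 89 and 16 of all 1311 were called. At 100 kb or more the main fit called 1 for the 3 stages, 2 for D4 against D0 and 1 for D8 against D0. Of all 1407 it called 16, 46 and 21. Leaving out each library in turn, with the lone library assumed to vary like the others, gave 0 to 4 for the 3 stages, 0 to 7 for D4 against D0, 0 to 3 for D8 against D0 and 0 to 0 for D8 against D4, where 0 to 35, 0 to 53, 0 to 32 and 0 to 1 of all 1407 were called.

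The read share was 2.47% at D0 and 4.57% at D4 among circRNAs with a mean of 5 or more. It was 0.365%, 0.875% and 0.886% at D0, D4 and D8 at 100 kb or more, where D8 was no longer below D4. Without the long-span circRNA with the most reads it was 2.28%, 4.25% and 3.42%. With single libraries it was 2.40% to 2.41%, 4.72% to 4.92% and 3.64% to 3.90%. With 5 or more reads in both replicates, 36 were detected at D0 and 72 at D4, 19 in all 3 stages and 44 at 1 stage. With 2 or more reads in either replicate, 77 were detected in all 3 stages and 42 at 1 stage. Shares of the other circRNAs by these rules are not given here. Leaving out a library gave 66 to 82 at D0, 114 to 130 at D4 and 91 to 112 at D8. Detection in every stage then ran from 37 to 39, and at 1 stage from 81 to 86.

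Without values of 0 the median circCPM of the long-span circRNAs was 192 at D0, 177 at D4 and 187 at D8, and that of the others 208, 177 and 177. At 100 kb or more it was 33.2 at D0 and 82.4 at D8. Library by library it was 0 to 0, 116 to 144 and 98.7 to 110 for the long-span circRNAs, and 124 to 133, 96.0 to 116 and 110 to 118 for the others. At shared ends the long-span share was 21.0%, 30.7% and 25.2% among circRNAs with a mean of 5 or more, and 17.1% to 18.9%, 27.5% to 28.3% and 23.0% to 23.6% in single libraries. The log2 fold changes against D0 of the 7 circRNAs whose junctions are shown kept their sign under every alternative run for them. These alternatives were 13 for the 63 kb circle of Slc10a7 and 14 for each of the others. For the 65 kb circle of Nfia, at 0 in both D0 libraries, only the direction can be read. The cause of these differences was not tested.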

Other observations

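Pparg, the transcription factor that drives adipocyte differentiation, gave 5 circRNAs, of which 1 was long-span. This circle of 67404 bases (chr6:115333697-115401100) was listed at 0 in both D0 libraries and had 3 and 7 reads at D4, and 5 and 0 at D8. Its donor at 115401100 is shared with a circle of 11243 bases, which was listed at 0 in both D0 libraries and had 5 and 6 reads at D4 and 11 and 12 at D8. No circle of Pparg had a read listed at D0.

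Long-span circRNAs came from every chromosome that gave circRNAs, in unequal shares. Chromosome 8, with Slc10a7, Arhgap10 and Large, gave the most (15 of 187, 8.02%), followed in share by chromosome 18 (10 of 126, 7.94%). Chromosome 16 gave 1 of 149 (0.671%) and chromosome 11 gave 4 of 243 (1.65%).

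Some long-span circRNAs were listed at 0 in a replicate and had 15 or more reads in the other. There were 2 at D0, 2 at D4 and 5 at D8. The widest such gap was that of the 63 kb circle of Slc10a7 at D0, with 0 and 83 reads.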
